A study of Rattus norvegicus with 4 samples.

Results

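Vomeronasal receptors are the pheromone-sensing receptors of the vomeronasal organ, a sense organ in the nose of rodents, and a macrophage line is not a cell in which they are known to act. The genes described here are those with a symbol starting with Vom1r or Vom2r that had a named probe on a rat expression array: 122 genes read by 146 probes, of 16581 genes with a named probe in all. They comprised 54 of the 213 Vom1r genes and 68 of the 165 Vom2r genes of the RefSeq gene table, all 122 protein-coding. Membership was chosen by gene name. The family was taken up because earlier readings of these same arrays were known, and the genes singled out were then chosen by their detection, so their detection is given as a description with no test.

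The data came from NR8383, an established alveolar macrophage line started from the lung lavage of a normal rat, grown with 15% serum as a mix of adherent and floating cells and used after 20 passages. Cells were seeded in 25 cm² flasks for 48 h, and all 4 cultures then received NM403, which is a carbon nanotube material with multiple walls, for 4 h at a dose of 0.8 cm² per cm². The 4 cultures, called biological replicates in the design, form 1 group of 4 arrays on 1 slide. The unexposed cultures that the design names are not analysed here, so no value below bears on the exposure. Each array gave 1 processed intensity per spot, in arbitrary units after background subtraction, and the number of arrays limits the precision. The flask RNA is a bulk sample, in which fewer cells of a type and less RNA per cell cannot be told apart.

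Vom1r and Vom2r genes encode unrelated families of G protein-coupled receptors. Vom1r receptors sit on neurons of the apical layer of the vomeronasal epithelium and signal through the G protein subunit Gnai2, while Vom2r receptors have a long extracellular domain, sit on neurons of the basal layer and signal through Gnao1. Both cascades open the Trpc2 channel. The genes lie in clusters of recent copies, so that members of a cluster can be close to identical in sequence.

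That likeness matters here because a probe may pair with transcripts of several copies, and the probes' own sequences were not used here. The following stretches of GRCr8, from RefSeq, are shown for members whose probes differed in detection although their start regions were close copies. These stretches cannot show which copies a probe pairs with, since the 100 bases before the annotated start lie outside the annotated transcript. Each runs from 100 bases before to 50 bases after the annotated start and is written in lower case, with capitals at bases that differ from the first sequence of its set in a global alignment of the whole 300-base windows. In the first set, Vom2r6 (chr1:3025823-3025972, plus strand), Vom2r1 (chr1:164374-164523, plus strand) and Vom2r4 (chr1:2889517-2889666, minus strand) were detected on all 4 arrays, while Vom2r3 (chr1:2759524-2759673, plus strand) and Vom2r67 (chr14:273330-273479, minus strand) were detected on none.
Vom2r6: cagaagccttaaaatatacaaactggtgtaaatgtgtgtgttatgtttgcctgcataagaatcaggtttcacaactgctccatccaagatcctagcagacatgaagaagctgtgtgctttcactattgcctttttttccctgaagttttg
Vom2r1: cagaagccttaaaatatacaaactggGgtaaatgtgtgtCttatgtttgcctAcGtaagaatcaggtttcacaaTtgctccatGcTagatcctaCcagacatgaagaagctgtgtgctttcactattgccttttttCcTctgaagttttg
Vom2r4: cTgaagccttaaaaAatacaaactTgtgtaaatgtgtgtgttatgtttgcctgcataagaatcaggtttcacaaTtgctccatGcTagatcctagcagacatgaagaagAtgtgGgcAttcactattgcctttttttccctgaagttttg
Vom2r3: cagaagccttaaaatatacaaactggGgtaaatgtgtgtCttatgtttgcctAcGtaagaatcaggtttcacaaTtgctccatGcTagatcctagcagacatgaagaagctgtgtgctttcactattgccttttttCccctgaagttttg
Vom2r67: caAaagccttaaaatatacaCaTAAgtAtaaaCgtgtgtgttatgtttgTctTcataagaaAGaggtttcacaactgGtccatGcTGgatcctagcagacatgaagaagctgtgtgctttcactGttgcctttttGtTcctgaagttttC

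In the second set, Vom2r73 (chr14:959395-959544, minus strand) and Vom2r72 (chr14:1039253-1039402, minus strand) were detected on all 4 arrays and Vom2r70 (chr14:658983-659132, plus strand) on 3.
Vom2r73: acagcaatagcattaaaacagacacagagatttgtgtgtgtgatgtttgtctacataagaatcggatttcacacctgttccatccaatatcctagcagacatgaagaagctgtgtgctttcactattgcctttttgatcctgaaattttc
Vom2r72: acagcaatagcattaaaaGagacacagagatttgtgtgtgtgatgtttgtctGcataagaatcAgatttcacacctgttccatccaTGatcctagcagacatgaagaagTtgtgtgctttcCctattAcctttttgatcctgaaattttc
Vom2r70: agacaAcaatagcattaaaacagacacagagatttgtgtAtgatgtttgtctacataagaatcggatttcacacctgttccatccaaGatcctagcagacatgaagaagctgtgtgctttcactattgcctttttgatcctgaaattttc

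In the stretches shown, Vom2r1 differed from Vom2r6 at 10 bases, Vom2r4 at 9, Vom2r3 at 8 and Vom2r67 at 19. Vom2r72 differed from Vom2r73 at 8 bases. Vom2r70 differed at 3 and also lacks 2 bases of Vom2r73, which the capitals do not show. All 8 of these genes have the start codon at the annotated start.

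Of the 122 vomeronasal receptor genes, 16 had a probe well above background on all 4 arrays, a call that the scanner software makes from each spot and its background. These 16 genes (13.1%) were 13 Vom2r genes (19.1% of 68) and 3 Vom1r genes (5.56% of 54). The same held for 47.9% of all genes with a named probe, so the share in the receptor family was below that background. A further 2 genes were detected on 3 arrays, 4 on 2 and 15 on 1, and 85 were detected on none. At least 1 array detected 37 genes (30.3%, exact 95% binomial interval 22.3% to 39.3%), against 59.6% of all named genes. By probe, 19 of 146 were detected on all arrays, 7 on 2 or 3, 16 on 1 and 104 on none, and 34.2% of all non-control probes were detected on all 4.

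Negative control spots carry no rat sequence, and their calls show how often the call is made on such spots. They do not show how often a receptor probe is called through RNA of other genes, which was not tested. On replicates 1 to 4 the call was made for 29, 25, 31 and 23 of the 146 receptor probes, or 19.9%, 17.1%, 21.2% and 15.8%. It was made for 7, 8, 11 and 9 of the 308 negative control spots, or 2.27%, 2.60%, 3.57% and 2.92%. Over the 4 arrays the exact 95% intervals reached from 10.3% to 28.8% for the receptor probes and from 0.918% to 6.30% for the negative control spots. They cover counting error only and treat probes of near-identical copies, and all negative control spots, as separate. All non-control probes were called in 37.1% to 43.2% of cases. For the 88 Vom2r probes the share lay between 20.5% and 29.5%. The 58 Vom1r probes gave 4 or 5 calls per array, 6.90% to 8.62%.

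The Vom2r genes at the start of chromosome 1 were nearly all detected. By the order of the gene table, the first 7 measured members on that chromosome are Vom2r1, Vom2r65, Vom2r2, Vom2r3, Vom2r4, Vom2r5 and Vom2r6, and 6 of these 7 were detected on all arrays. Of the other 61 measured members on chromosome 1, 7 were. The order was looked at after detection was known, and the block of 7 ends where the run of detected genes ends. The next member, Vom2r7, was detected on 1 array. The counts are therefore a description only. The 7 are all Vom2r genes, while the 61 include Vom1r genes.

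Vom2r6 has 1 probe, which read 4448, 2213, 3762 and 2356 on replicates 1 to 4. Its level, the log2 intensity relative to the 75th percentile of the detected probes of the same array, was 0.26 ± 0.54 (SD, n = 4), and replicates 1 and 3 stood above replicates 2 and 4. Vom2r1 was the member with 3 probes all detected on every array. The first, A_44_P1100659, read 3994, 2107, 3453 and 2158 (level 0.14 ± 0.52), and the second, A_44_P1157515, read 2306, 1221, 2058 and 1251 (level -0.64 ± 0.53). The third, A_64_P232286, read 269, 68.9, 203 and 72.1 (level -4.32 ± 1.06), below the 99th percentile of the negative control spots on replicates 2 and 4. All 3 probes again read higher on replicates 1 and 3. Vom2r4 read 3655, 1914, 3132 and 2069 by probe A_44_P1080141 (level 0.02 ± 0.50). Its second probe, A_64_P232269, read 82.5, 28.7, 64.2 and 22.2 and was called on replicates 1 and 3 only.

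Replicates 1 and 3 also stood above replicates 2 and 4 in the rest of this stretch. Vom2r65 read 1209, 605, 1053 and 599 by one probe (A_44_P1080159, level -1.63 ± 0.58) and 873, 498, 743 and 552 by the other (A_44_P1365393, level -1.98 ± 0.41). Vom2r5 read 803, 435, 754 and 532 (level -2.06 ± 0.46), and 2 of the 24 spots around its probe were raised on replicate 4. Vom2r2 read 361, 131, 307 and 155 (level -3.55 ± 0.76), with replicate 4 under the 99th percentile of the negative control spots. Vom2r3 lies between Vom2r2 and Vom2r4 and is named after its values were seen. Its only probe, A_64_P232256, read 36.5, 9.0, 27.1 and 11.8 and was called on no array. Vom2r8, further along the chromosome, read 1052, 509, 928 and 611 (level -1.78 ± 0.53), above every negative control spot on every array.

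Elsewhere on chromosome 1, Vom2r34 read 2459, 957, 2298 and 980 (level -0.75 ± 0.81) by probe A_64_P160121. Its other probe, A_64_P165791, read between 8.06 and 17.5 and was called on no array. Vom2r18 read 381, 238, 387 and 240 (level -3.08 ± 0.47), and its second probe was also called on none. Both genes thus rest on 1 of 2 probes. Vom2r19, the neighbour of Vom2r18 among the measured members, read 201, 56.6, 172 and 64.6 (level -4.59 ± 0.99), below the 99th percentile of the negative control spots on replicates 2 and 4. Of its other 2 probes, 1 was called on replicate 1 and 1 on no array.

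Chromosome 14 carries 5 measured members, of which the last 3 in gene order were detected. Vom2r72 read 2069, 1119, 1747 and 1214 (level -0.78 ± 0.46), and 4 of the 24 spots around its probe were raised on replicate 2. Vom2r73 read 303, 200, 267 and 198 (level -3.43 ± 0.36). Vom2r70 read 121, 50.7, 92.4 and 36.5 and was called on replicates 1, 2 and 3. The groups of arrays kept their order in all 3 genes, with replicates 1 and 3 above 2 and 4. On chromosome 12, Vom2r61 read 51.2, 56.2, 47.5 and 58.7 (level -5.59 ± 0.10). It was called on every array but lay below the 99th percentile of the negative control spots on all 4, and its second probe was called on none.

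The 3 Vom1r genes called on every array were Vom1r23, Vom1r55 and Vom1r61, each read by 1 probe and all on chromosome 1. Vom1r23 read 448, 163, 451 and 208 (level -3.15 ± 0.81), with replicates 1 and 3 above 2 and 4 as in most Vom2r genes. Vom1r55 read 361, 339, 360 and 360 (level -2.85 ± 0.14), nearly the same on every array. Vom1r61 read 109, 152, 98.9 and 175 (level -4.30 ± 0.33), with replicates 2 and 4 the higher ones and replicate 3 below the 99th percentile of the negative control spots. None of the 31 measured members on chromosome 4, most of them Vom1r genes, was detected on all arrays, and 3 were on at least 1 array.

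**Figure D1:**
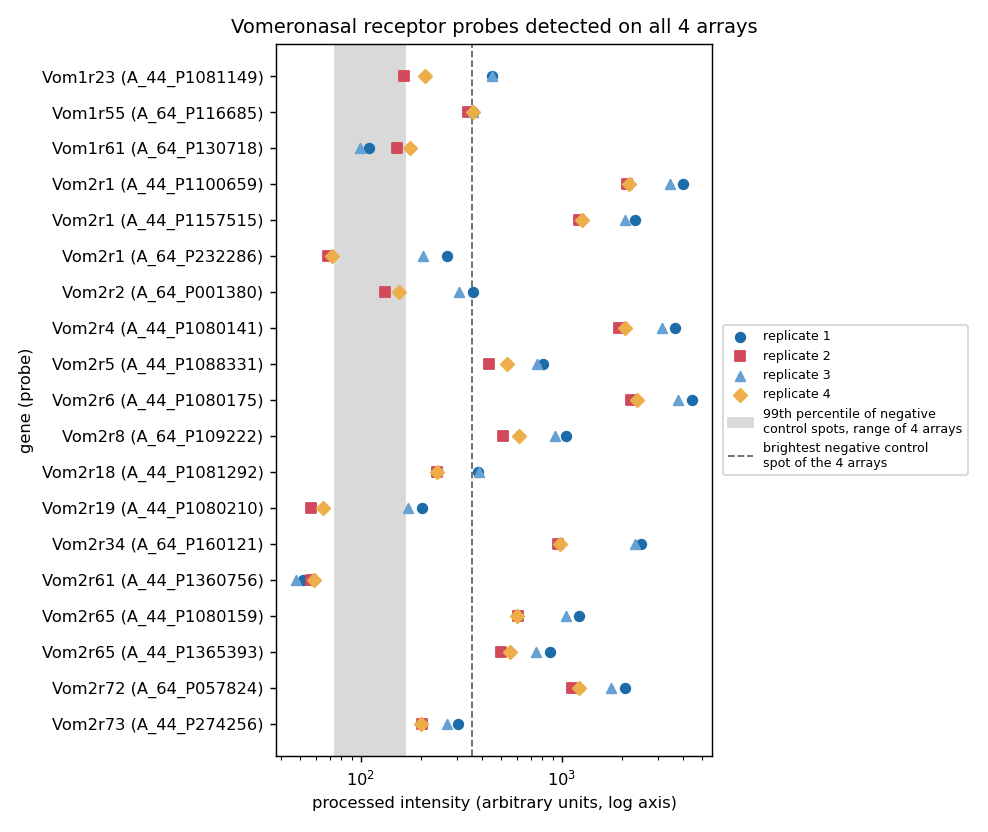
Processed intensity (arbitrary units, log axis) of the 19 vomeronasal receptor probes detected on all 4 arrays, 1 row per probe and 1 point per replicate; the grey band spans the arrays' 99th percentiles of negative control spots and the dashed line marks the brightest such spot. Of these, 10 probes lay above every negative control spot of their own array on every array, and the rows read from 47.5 to 4448; rows are different probes, whose heights are not comparable with each other.

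Of the 19 probes, 10 read above every one of the 308 negative control spots on each array, and 14 read above their 99th percentile on each array. That percentile lay between 74.6 and 166 and the brightest negative control spot between 184 and 356. The call is made from each spot and its background, so that called probes read above uncalled ones largely follows from the call. Among the receptor probes the lowest called reading was 43.7, 50.7, 47.5 and 58.7 on replicates 1 to 4. The highest uncalled reading was 36.5, 35.7, 38.3 and 53.5. Vom2r61 was the lowest called probe on replicates 3 and 4. The 104 probes called on no array read from 7.21 upward, and the median of their highest readings was 12.1.

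No probe called on 2 or 3 arrays read above every negative control spot of its array on any array. Vom2r78 was called on replicates 2, 3 and 4, where it read 83.0, 66.8 and 163, and not on replicate 1, where it read 12.5. Vom2r16, Vom2r25 and Vom2r55 were called on replicates 1 and 3. Vom2r31 was called on replicates 3 and 4, and its 251 on replicate 4 stood beside 3 raised neighbouring spots. The 5 highest readings among probes called on 1 array were those of Vom1r97 (192 on replicate 3), Vom2r7 (152 on replicate 2), Vom2r64 (140 on replicate 2), Vom1r80 (140 on replicate 4) and Vom2r10 (134 on replicate 3). On the other 3 arrays these probes read at most 11.4, 11.4, 12.2, 8.32 and 30.4, in the same order.

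A spot counts as raised where its intensity, set to 50 if lower, exceeded the median of the remaining 3 arrays by 4-fold or more. Its neighbours are the spots up to 2 rows and 2 columns away. At 16 probes called on 1 array, 7 had a raised neighbour on that array and 4 had at least 2, including Vom1r80 with 4 of 24. Among the 19 probes called on all arrays, 7 had a raised neighbour on any array and 3 had at least 2. Those 3 were the third Vom2r1 probe and the probes of Vom2r5 and Vom2r72. Without them, 14 of the 16 genes stayed in the count, beside 44.7% of all named genes under the same rule, since the other Vom2r1 probes kept that gene. A spot had 0.085 to 0.227 raised neighbours on average, depending on the array, and 1.86% to 2.94% of all spots had at least 2. That share is per array, as is the count for the 16 probes called on 1 array. The count for the 19 probes is over any array and is not like it.

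Most of these probes split the 4 arrays in the same way. Of the 19 probes, 16 had their highest 2 levels on replicates 1 and 3, namely every Vom2r probe but that of Vom2r61, and the Vom1r23 probe. The Vom1r61 and Vom2r61 probes had them on replicates 2 and 4, and the Vom1r55 probe on 2 and 3. Many of the 16 probes belong to genes whose start regions were close copies. These are Vom2r1, Vom2r4, Vom2r5, Vom2r6 and Vom2r65, and Vom2r72 with Vom2r73. Their probes may not be independent of each other, although start regions cannot show which copies a probe reads. Over all 15578 probes detected on all arrays, 40.1% were highest on replicates 1 and 3 and 41.5% on 2 and 4, so the arrays differed in this way far beyond the receptor genes. The count of 16 was the same under all 4 other scalings tried, while the share over all detected probes became 23.1% with the array median, 23.9% with the 75th percentile of all non-control probes, 32.2% with quantile normalization and 39.7% with normexp background correction. The labels give these arrays the same exposure, and what the pairs share was not tested.

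**Figure D2:**
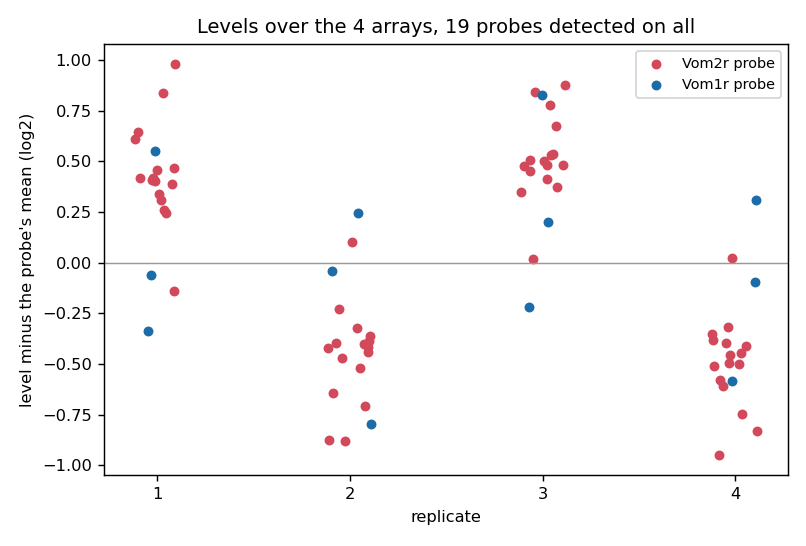
Level of the 19 probes on each replicate minus the probe's own mean over the 4 arrays (log2), with Vom2r probes in red and Vom1r probes in blue; points are spread sideways for display. Of these, 16 probes have their highest 2 levels on replicates 1 and 3, while the Vom1r55, Vom1r61 and Vom2r61 probes do not.

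How wide the spread over the arrays was depended on the scaling. The median SD of the level was 0.52 for the 19 receptor probes and 0.25 for all 15578 probes detected on all arrays. With the 75th percentile of all non-control probes it was 0.32 and 0.35, and with the array median 0.37 and 0.35, so that the receptor probes then varied about as much as the rest. The fold range of a probe over the 4 arrays is 2 to the power of the difference between its highest and lowest level. It ran from 1.18-fold for Vom2r61 to 3.82-fold for the third Vom2r1 probe. It was above 2-fold in 8 of the 19, against 18.3% of all detected probes. Scaling on the 75th percentile of all non-control probes left 4 such probes, against 21.5% of all detected probes, and the array median left 5, against 26.0%, shares that are about the same. Quantile normalization gave 6, against 17.0%, and normexp 7, against 12.5%.

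Probes of 1 gene often disagreed. Of 21 members with more than 1 probe, 9 had no probe called on any array, and 7 had a probe called on all. In 2 of those 7, Vom2r1 and Vom2r65, every probe was called on all arrays. In the other 5, Vom2r4, Vom2r18, Vom2r19, Vom2r34 and Vom2r61, at least 1 probe was not. A rule that asks for every probe of a gene gives 11 genes on all arrays in place of 16, and 42.7% of all named genes in place of 47.9%. Probe names fall into series, and 12 of the 54 member probes with names starting with A_44 (22.2%) were called on all arrays, as were 7 of the 90 starting with A_64 (7.78%). Over all non-control probes the shares were 29.2% for the first series and 38.9% for the second. In Vom2r4 the probe of the first series was called on every array and that of the second on 2. In Vom2r1 the probes of both series were called on every array. Vom2r18, Vom2r19 and Vom2r61 each have a probe of the first series called on no array. Vom2r34 has probes of the second series alone, A_64_P160121 called on every array and A_64_P165791 on none. Vom2r3 has a probe of the second series alone. The part of the series in these differences was not tested.

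Members with close copies were compared by their start windows, 300 bases from 250 before to 50 after the annotated start, which RefSeq gives for 112 of the 122 members and 14 of the 16 called on all arrays. In all, 28 genes in 10 groups were linked by an identity of at least 90%, and the median identity over all 6216 pairs was 60.3%. Of the 28 genes, 8 were called on all arrays and 16 on none. Of the 84 outside these groups, 6 were called on all and 61 on none. The 8 lay in 3 of the 10 groups and are all Vom2r genes. Most of the 28 are Vom2r genes, while the 84 include many Vom1r genes, so these counts are not of like families. With an identity of at least 80% the grouped genes called on all numbered 9 of 53, and with at least 95% they numbered 7 of 21.

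The largest group held Vom2r1, Vom2r3, Vom2r4, Vom2r5, Vom2r6, Vom2r65 and Vom2r67, at 89% to 99% identity, and 5 of these 7 were called on all arrays. The window of Vom2r3, called on none, was 99% identical to that of Vom2r1, and the stretches shown above for these 2 genes follow each other almost base for base. Vom2r70, Vom2r72 and Vom2r73 formed a group at 94.0% to 96.7%, with 2 genes called on all arrays and 1 on 3. Vom2r61 and Vom2r64, at 90%, were called on 4 arrays and on 1. The other 7 groups, Vom1r102 with Vom1r103 and Vom2r56 with Vom2r57 among them, had no gene called on all arrays. Whether a probe reads 1 of these copies or several was not tested. The start windows cannot show it, since they lie mostly before the annotated start.

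**Figure D3:**
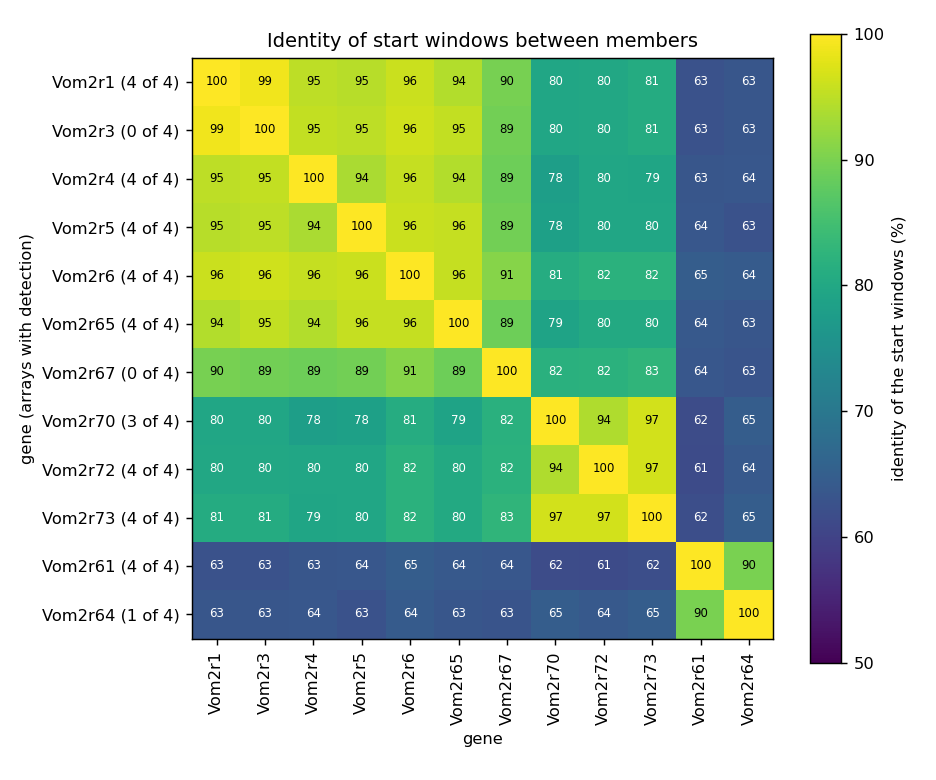
Identity (percent, colour and number) of the start windows between the 12 members of the 3 near-identical groups that hold a gene called on all arrays, with the number of arrays with detection after each gene on the vertical axis. Vom2r1, called on 4 arrays, and Vom2r3, called on none, are 99% identical.

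**Figure D4:**
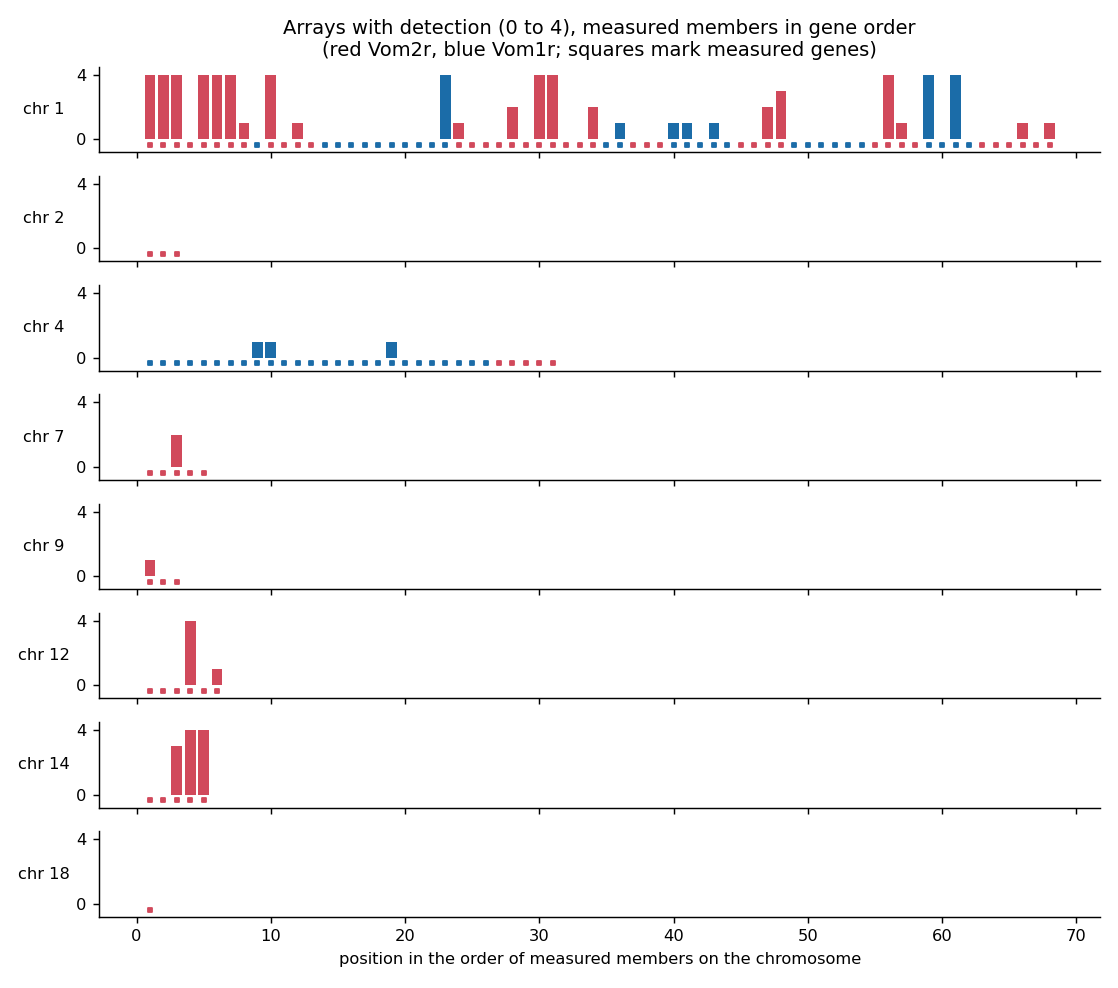
Number of arrays with detection (bar height, 0 to 4) for the 122 measured members, in their order along each chromosome; red marks Vom2r, blue Vom1r, and squares mark each measured gene. Of the first 7 members on chromosome 1, a block marked off after detection was known, 6 reach 4 arrays. None of the 31 on chromosome 4, most of them Vom1r genes, does.

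Motifs were searched on both strands of the windows by their letters. The TATA box letters TATAAA stood in 40 of the 112 member windows (35.7%) and in 14.3% of all 27457 windows, and among the 14 members called on all arrays in 3, those of Vom1r23, Vom1r55 and Vom2r61. TGANTCA, the AP-1 letters, stood in 14 member windows (12.5%, against 7.33% of all) and in no window of a member called on all arrays. The letters TGACGTCA (CRE) and GAGGAAGT (bound by PU.1, a factor of macrophages) were found in 0 member windows, against 1.91% and 2.44% of all. In 73 of the 112 windows (65.2%) the annotated start is itself the start codon, against 10.5% of all windows, so for these genes the table holds no leader ahead of the coding sequence and the motif shares are not of like regions.

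Other chemoreceptor families gave smaller shares of genes called on all arrays, though several of them had few measured genes. Of 1161 measured olfactory receptor genes, 18 were (1.55%), against 13 of 68 Vom2r genes and 3 of 54 Vom1r genes, with no test since the receptor families were chosen with earlier readings known. On at least 1 array, 15.5% of olfactory receptor genes, 18.5% of Vom1r genes and 39.7% of Vom2r genes were called. The 8 olfactory receptor genes with the highest levels among the 18 were Or1f26, Or2t48e, Olr1, Or5p50, Or10am5, Olr716, Or4a80 and Or13l2. Of the 18, 6 were highest on replicates 1 and 3, as most Vom2r probes were, and 6 on 2 and 4. Other scalings gave 4 to 7 and 4 to 13. Or1f26 read 821, 904, 639 and 1011 on replicates 1 to 4, and Or13l2 read 433, 49.8, 363 and 87.1. None of 33 bitter taste receptor genes (Tas2r) was called on all arrays. On some arrays 5 were (15.2%), a share near that of Vom1r genes on at least 1 array. None of 3 sweet and umami taste receptor genes (Tas1r), 17 trace amine receptor genes (Taar) or 2 formyl peptide receptor genes (Fpr1 and Fpr2l1) was called on any.

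**Figure D5:**
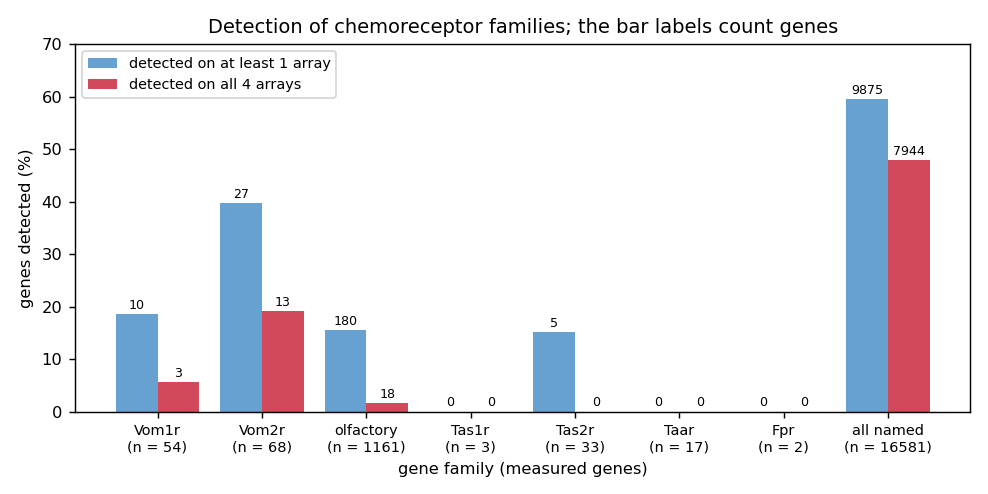
Share of measured genes (percent) called on at least 1 array (blue) and on all 4 arrays (red), by chemoreceptor family and for all named genes; numbers over the bars count genes. Of Vom2r genes 19.1% were called on all 4 arrays, of Vom1r genes 5.56%, of olfactory receptor genes 1.55% and of all named genes 47.9%.

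Of 31 listed signalling and co-receptor genes 24 had a named probe, and 7 were called on all arrays, 3 on some and 14 on none. Over all named genes 47.9% were called on all arrays and 40.4% on none. The 7 were Gnai2, Gnb1, Gng8, Plcb2, Calr, Canx and B2m, most of which serve many cell types: Gnai2 and Gnb1 are G protein subunits, Plcb2 is a phospholipase C of blood cells too, Calr and Canx are chaperones, and B2m is the light chain of class I molecules. Gnao1, the subunit through which Vom2r receptors signal, was called on none, nor were Rtp1 and Rtp2, which carry odorant receptors to the cell surface. RT1-M1-2, RT1-M1-4 and RT1-M1-5, class I molecules that accompany Vom2r receptors, were called on none either. Trpc2 had no named probe.

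Gng8, a G protein subunit of vomeronasal neurons, read 902, 464, 765 and 536 on replicates 1 to 4 by its brightest probe (level -1.99 ± 0.48), higher on replicates 1 and 3. Of the 7 signalling genes called on all arrays, 3 were highest on replicates 1 and 3 and 3 on 2 and 4; other scalings gave 2 to 4 and 2 to 5. Of 25 measured sensory neuron markers, 17 were called on no array. Omp, the defining protein of mature olfactory and vomeronasal neurons, was called on none and read from 9.23 to 17.0. Of 14 macrophage markers, 12 were called on all arrays, among them Cd68, Lyz2 and Csf1r, and Marco and Adgre1 were called on none. Of these 12, 3 were highest on replicates 1 and 3 and 9 on 2 and 4, and under the other scalings 1 or 2 and 6 to 10.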

How the data were processed

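Each array was 1-colour (Cy3). Per the submitters' processing notes, spots were read with Agilent Feature Extraction 11.0.1.1, and per the file headers the deposited processed intensity is background-subtracted and detrended, with no scaling between arrays, on a design that names the rat build rn4. Flags were used as deposited. Feature Extraction marked replicate 4 for evaluation, with 2 quality measures out of range. Between 623 and 1016 outlier spots per array, none of them a member's, were left out, and 0 spots were saturated.

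Gene symbols came from unversioned accessions through RefSeq's table for GRCr8: 21109 of 45598 non-control probes have 1 symbol, 0 several and 24489 none. A probe printed more than 1 time counted as detected where more than 50% of its spots were well above background, and a gene where any probe was. As 34.2% of probes were detected on all arrays, levels are log2 intensity minus the array's 75th percentile over those probes. Start windows (the first listed per gene) were aligned with Biopython 1.88; limma 3.58.1 gave the normexp and quantile alternatives. The counting was tested on simulated data. Members, lists and the rule for named genes (every member on 2 or more arrays, the 5 highest readings of those on 1, at most 8 genes of each other list) were chosen with earlier results of these data known. There was 1 group, so no contrast was tested. One item of the marker lists is not reported here.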

Additional observations from a re-analysis of the deposited data

Results flagged for a closer look

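Of the 31 receptor probes named in the text that were examined for 1 array standing apart, 4 had such an array, and chance alone gives about 1 in 20. The gap to the nearest of the other arrays, as a share of the whole range of levels, was 0.91 for Vom1r97 (replicate 3), 0.877 for Vom2r7 (replicate 2), 0.837 for Vom2r64 (replicate 2) and 0.929 for Vom1r80 (replicate 4). Each of these 4 probes was called on 1 array and named for its reading there, so the gap follows from the choice. Around them 1, 1, 0 and 4 of 24 spots were raised on that array, in the same order, and the part of those neighbours in the readings was not tested. None of the 19 probes called on all arrays had such a gap.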

How the results depend on the processing

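With the weaker call of signal above background (positive and significant), the share of receptor probes called became 30.8%, 26.0%, 34.9% and 25.3% on replicates 1 to 4, the share of genes on any array became 45.9%, and genes on all arrays became 22, against 58.7% of all named genes. Genes on all arrays numbered 20 above the 95th percentile of the negative control spots (54.6% of all named genes), 12 above the 99th (39.4%; without Vom1r61, Vom2r2, Vom2r19 and Vom2r61), 11 with every probe of a gene required (42.7%), 14 without probes beside raised spots (44.7%; without Vom2r5 and Vom2r72), and 16 with outlier spots kept or any spot counted. Leaving out each replicate in turn gave 16 to 17. Probes with a range above 2-fold numbered 8 of 19 (18.3% of all detected probes), but 4 (21.5%) when scaled on all non-control probes, 5 (26.0%) when scaled on the array median, 6 (17.0%) with quantile normalization, 7 (12.5%) with normexp and 6 to 8 with a replicate left out; the wider spread than that of all probes was not seen with scaling on all non-control probes or on the array median, and the cause was not tested. Scaling on all non-control probes moved the SD by over 1.5 times in 13 of 19 probes, and the other scalings did in 2 to 4. Identity limits of 80% and 95% were chosen after seeing the data. Gene names from the array files were not run as an alternative, since the columns used here hold none. No paired analysis was possible because there is 1 group. Dim probes near the negative control spots limit the calls on 1 to 3 arrays.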
